A study of Homo sapiens with 6 samples.

Results

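The genes described here are 47 cytosolic translation factors of human cells, chosen by name for their roles in translation. All 47 were among the 57820 genes of the count table, and 46 had enough reads to be tested. They fall into 6 groups by role. These are the 5 subunits of eIF2B, 13 subunits of eIF3, 9 factors of the eIF4 family, 9 other initiation factors, 7 elongation factors or their regulators, and 4 factors of termination and recycling with poly(A)-binding protein.

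Translation starts when eIF2, bound to GTP, brings the initiator tRNA to the small ribosomal subunit, and eIF2B recharges eIF2 with GTP after each round. The eIF4 factors bind the cap and unwind the mRNA leader, eIF3 links that mRNA to the small subunit, and eIF1, eIF1A, eIF5 and eIF5B select the start codon and join the large subunit. The eEF1 and eEF2 proteins then deliver tRNA and move the ribosome, while eRF1, eRF3 and ABCE1 end translation and recycle it. Many mRNAs of this machinery, above all those of ribosomal proteins and elongation factors, begin with a run of pyrimidines that couples their translation to mTOR signalling.

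The cells were HEK293, a long-established human line that began from embryonic kidney. They received 100 µM minocycline, a tetracycline antibiotic, or its vehicle dimethyl sulfoxide (DMSO, the control) for 12 h, and neither group was heat shocked. Each group had 3 total RNA libraries, which the series calls biological replicates, and the labels give each replicate number as a batch, so that a batch holds 1 library of each group. The comparison asks whether the abundance of translation factor mRNAs differed after the drug. No label says that the replicates came from separate cultures, so the p-values measure the spread between these libraries.

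Total counts were 17303180 to 17835756 per library. Of the genes used to check the label, VIM, NEFM and PAX2 were taken as expressed and had reads in all 6 libraries. PAX2 was low, at 2.61 to 5.08 CPM (counts scaled to library size and by TMM factors). Of the markers of other cell types, taken as absent, PTPRC, ALB and HBB were at or near 0. COL1A1, a collagen of connective tissue also taken as absent, was at 53.0 to 81.1 CPM and so did not meet the check. NEFL and PECAM1 were not analysed here. Principal component 1 (52.9% of the variance) placed control replicate 1 (-34.9) beside minocycline replicate 2 (-32.3), away from control replicates 2 (31.1) and 3 (47.1). Control replicate 1 thus stood apart from the other control libraries, and values without it are given for the groups of factors and for the genes that turn on it. The bulk libraries cannot tell fewer cells of a type from less RNA per cell.

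No translation factor mRNA passed the test for a difference between minocycline and control. With edgeR's quasi-likelihood test and Benjamini-Hochberg adjustment over 17225 genes, 0 of 46 factors had an adjusted p under 0.05, against 0.0522% of all genes, which is 9 genes. The adjusted p of the factors lay between 0.820 and 0.999, and their fitted fold lay between 0.808 and 1.30. At an unadjusted p under 0.05 there were 2 factors, EIF2S2 and EIF2S3, or 4.35% of the 46, against 4.70% of all genes. Both were fitted higher, as were 2.72% of all genes at that p. The median log2 fold change of minocycline over control was -0.0097 for the factors and 0.014 for all genes, with 22 factors fitted higher and 24 fitted lower. Together the factors took 3.00%, 2.93% and 3.12% of the counts in minocycline replicates 1, 2 and 3, against 2.71%, 2.96% and 3.05% in the control ones.

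The 2 groups of libraries did not overlap for 6 of the 46 factors, or 13.0%, against 9.31% of all genes. Of these, EIF2S2, EIF2S3 and PABPC1 were higher in all 3 minocycline libraries than in any control library, where 5.74% of all genes were. EIF2B3, EIF3B and EIF5A were lower in all 3, where 3.56% of all genes were. Within batches, 8 of the 46 factors had the same sign in all 3, namely those 6 with EIF2B1 and EIF4G2. This was a smaller share than the 23.4% of all genes.

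**Figure D1:**
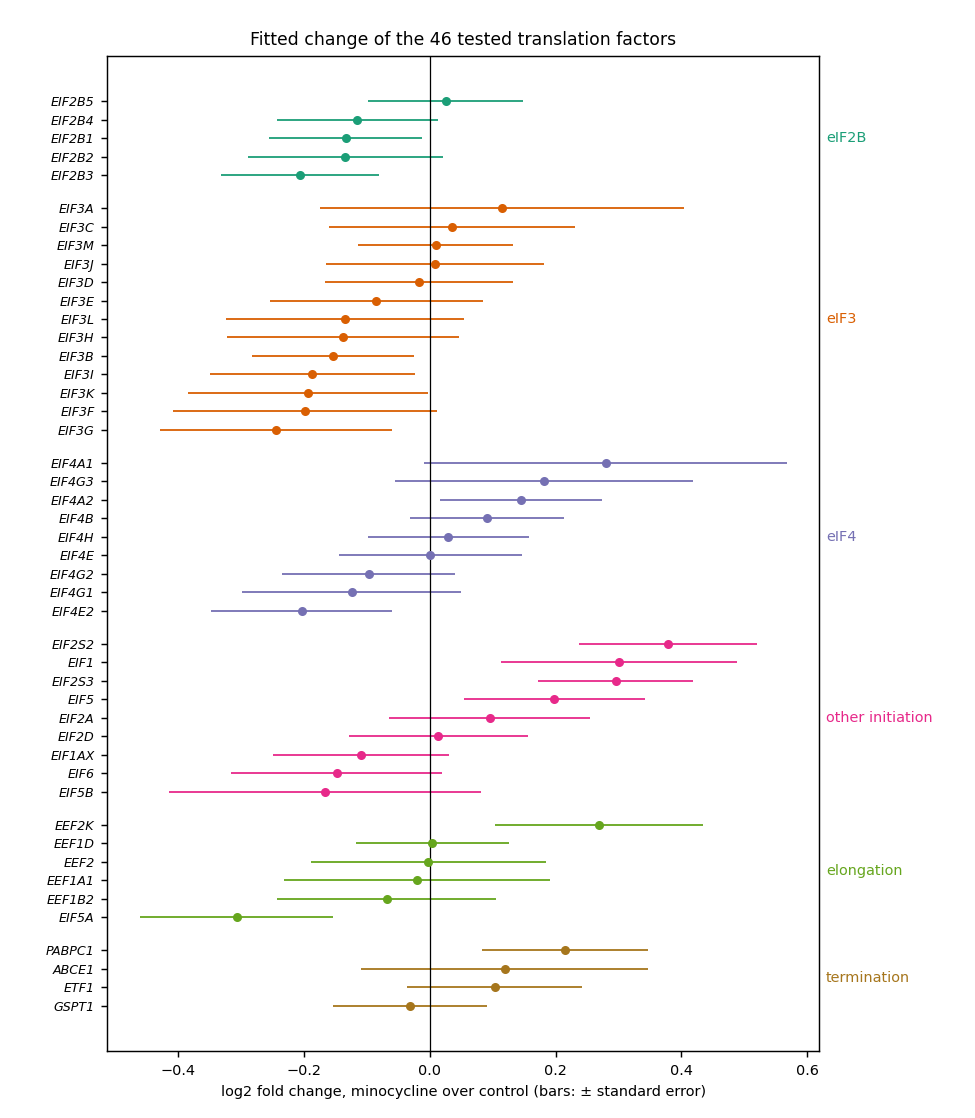
Log2 fold change of minocycline over control (x axis) for each of the 46 tested factors (rows, by role), with bars of 1 standard error from edgeR's quasi-likelihood fit on 3 libraries per group. The values run between -0.31 for EIF5A and 0.38 for EIF2S2, and none passed an adjusted p of 0.05.

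Both factors with an unadjusted p under 0.05 encode subunits of eIF2, which carries the initiator tRNA. EIF2S2 (ENSG00000125977.6, chr20:32676115-32700049 on the minus strand in GRCh37) encodes the beta subunit and stood at 179, 205 and 240.0 CPM in minocycline replicates 1, 2 and 3, against 172, 158 and 150.0 CPM in control replicates 1, 2 and 3. All minocycline libraries were above all control libraries, although minocycline replicate 1 lay close to control replicate 1. Its log2 fold change was 0.38 ± 0.14 (SE), a fold of 1.30, with unadjusted p = 0.0243 and adjusted p = 0.820 from edgeR. EIF2S2 carried the highest fold among the 46 factors.

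EIF2S3 (ENSG00000130741.6, chrX:24073063-24096927 on the plus strand) encodes the gamma subunit, which binds GTP and the initiator tRNA. It had 763, 755 and 751 CPM in the minocycline libraries, against 617, 617 and 614 CPM in the control libraries. The spread inside each group was much smaller than the gap, with means of 756 ± 6.42 CPM with minocycline and 616 ± 1.70 CPM in controls (SD, n = 3 each). The differences in batches 1, 2 and 3 were 0.31, 0.29 and 0.29 on the log2(CPM + 1) scale, nearly the same in each. Its log2 fold change was 0.30 ± 0.12, with unadjusted p = 0.0392 and adjusted p = 0.820 from edgeR, and it passed in none of the 16 alternatives. The gene of the alpha subunit, EIF2S1, which carries the serine that stress kinases phosphorylate and was not among the 47, had a log2 fold change of -0.033 ± 0.13. Related copies had few counts of their own, 150 to 222 per library for EIF2S3B and 112 to 191 for the pseudogene EIF2S2P4, so that how shared reads were counted could touch both levels.

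**Figure D2:**
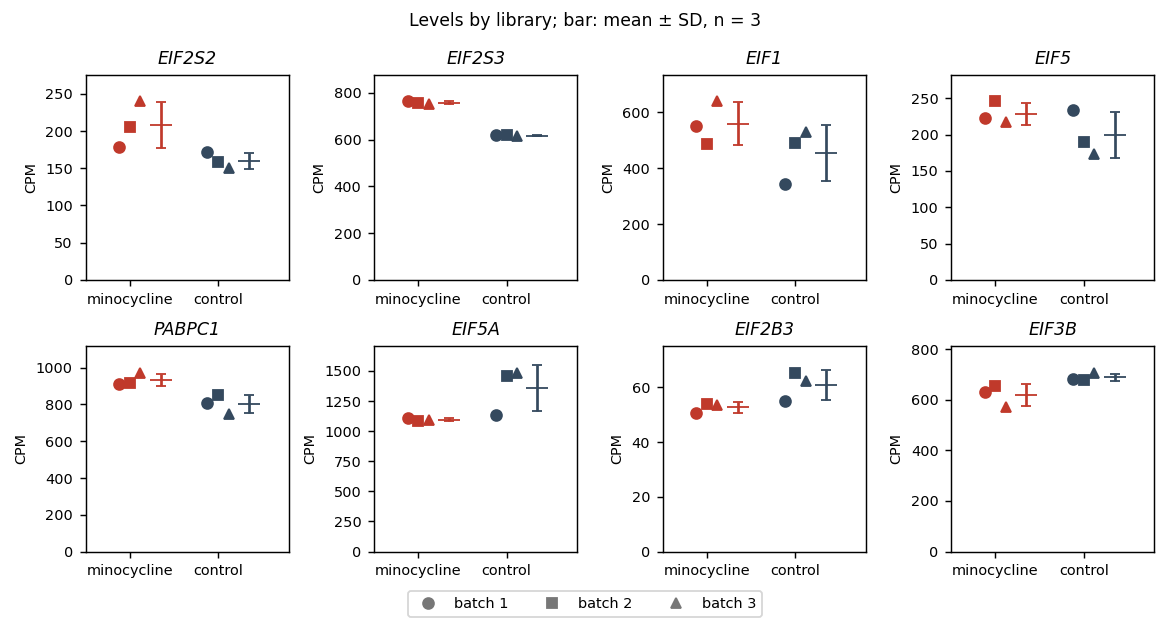
CPM (y axes, each from 0) of 8 factors in the 3 minocycline libraries (red) and the 3 control libraries (blue), with mean ± SD beside the points and a symbol per batch. EIF2S2, EIF2S3 and PABPC1 do not overlap and are higher with minocycline, EIF5A, EIF2B3 and EIF3B do not overlap and are lower, and EIF1 and EIF5 overlap.

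The other 7 initiation factors outside eIF2B, eIF3 and eIF4 varied in both directions, and all overlapped between groups. Over all 9, 6 were fitted higher and 3 lower, with a median log2 fold change of 0.095. EIF1, which guards start codon choice and had the most counts per kilobase of this group in both conditions (239 CPM per kilobase with minocycline and 194 in controls), was at 553, 487 and 639 CPM with minocycline, against 342, 491 and 529 CPM in controls. Control replicate 1 was the low library, and the log2 fold change was 0.30 ± 0.19 with unadjusted p = 0.141. Without that library it was 0.13 ± 0.13 (edgeR adjusted p = 0.521). When 1 surrogate variable was added to the model, EIF1 rose by 0.54 ± 0.080 (edgeR adjusted p = 0.00371), where 0.528% of all genes passed, and it passed in no other alternative. EIF5B, the GTPase that joins the subunits, was at 61.5, 99.0 and 89.2 CPM with minocycline, against 129.8, 78.2 and 72.2 CPM in controls. Its highest and lowest libraries were the batch 1 pair, and its log2 fold change of -0.17 ± 0.25 was the lowest of the group, against 0.15 ± 0.16 without control replicate 1. EIF5, which makes eIF2 hydrolyse its GTP and was picked out after its values were seen, was at 223, 246 and 217 CPM with minocycline, against 234, 190.1 and 174 CPM in controls, a log2 fold change of 0.20 ± 0.14. The log2 fold changes of EIF1AX, EIF2A, EIF2D and EIF6 lay between -0.15 for EIF6, which keeps the subunits apart, and 0.095 for EIF2A.

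eIF2B, the exchange factor whose inhibition by phosphorylated eIF2 lowers initiation under stress, had 4 of 5 subunits fitted lower, none past the test. Its median log2 fold change was -0.13, against 0.014 for all genes. EIF2B3 (ENSG00000070785.12), the gamma subunit, was the lowest at 50.5, 54.0 and 53.7 CPM with minocycline, against 54.9, 65.2 and 62.4 CPM in controls. Control replicate 1 lay just above the minocycline libraries, and the log2 fold change was -0.21 ± 0.13 with unadjusted p = 0.134. EIF2B5, the catalytic epsilon subunit, was at 100.4, 99.1 and 98.5 CPM with minocycline, against 87.2, 100.1 and 106 CPM in controls, a log2 fold change of 0.025 ± 0.12. Per kilobase EIF2B1 was the most abundant subunit, with 42.0 CPM per kilobase with minocycline and 46.1 in controls. Its library values were 97.8, 100.3 and 104 CPM with minocycline, against 101, 111 and 120.1 CPM in controls, and its log2 fold change was -0.13 ± 0.12. EIF2B2 and EIF2B4 gave -0.13 ± 0.15 and -0.12 ± 0.13. The group's median difference was 0.098 in batch 1, -0.18 in batch 2 and -0.22 in batch 3, so its direction differed between batches. Batch 1 holds control replicate 1, which was the lowest library in 3 of the 5 subunits, against 3406 of the 17225 genes tested.

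eIF3, the large scaffold that holds the small subunit and the mRNA, had 9 of 13 subunits fitted lower and 4 higher, with a median log2 fold change of -0.13 (0.052 with 1 surrogate variable) and none past the test. Their values by library followed different patterns. EIF3A (ENSG00000107581.8), the largest subunit of the core, was at 314, 461 and 334 CPM with minocycline, against 523, 265 and 237 CPM in controls, and its log2 fold change of 0.11 ± 0.29 was the highest of the group. Both its highest and its lowest library were control libraries, replicate 1 and replicate 3. EIF3G (ENSG00000130811.6), an RNA-binding subunit and the most abundant per kilobase (320.1 CPM per kilobase with minocycline and 379 in controls), was at 347, 321 and 391 CPM with minocycline, against 309.7, 446 and 499 CPM in controls. Control replicate 1 was here the lowest library and control replicate 3 the highest, the reverse of EIF3A, and the log2 fold change was -0.25 ± 0.18. EIF3B (ENSG00000106263.13), a core subunit, did not overlap between groups, at 629, 655 and 571 CPM with minocycline and 681, 677 and 705 CPM in controls, and had a log2 fold change of -0.15 ± 0.13 with unadjusted p = 0.262.

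The other 10 eIF3 subunits overlapped between groups, and their log2 fold changes lay between -0.20 for EIF3F and 0.035 for EIF3C. EIF3F, which pairs with EIF3H in the outer part of the complex, was at 454, 388 and 521 CPM with minocycline, against 365, 566 and 634 CPM in controls. EIF3K, a small peripheral subunit, was at 136, 121 and 157 CPM with minocycline, against 115, 171 and 187 CPM in controls. In both, control replicate 1 was the lowest library and minocycline replicate 2 the next lowest. EIF3E was at 237, 268 and 368 CPM with minocycline, against 299, 319.6 and 309 CPM in controls, so that minocycline libraries held both its highest and its lowest value. Of the 13, 8 had their lowest value in control replicate 1, and 7 of those had their highest in control replicate 3. Over all 17225 genes tested, control replicate 1 was lowest in 3406. The group's median difference was 0.13 in batch 1, -0.25 in batch 2 and -0.17 in batch 3. The level of EIF3C, a core subunit, is uncertain because the near-identical EIF3CL was counted apart, at 89 to 167 counts per library. EIF3L shares 58.5% of its transcript with an annotated long noncoding RNA on the same strand, which was not among the genes of the count table.

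**Figure D3:**
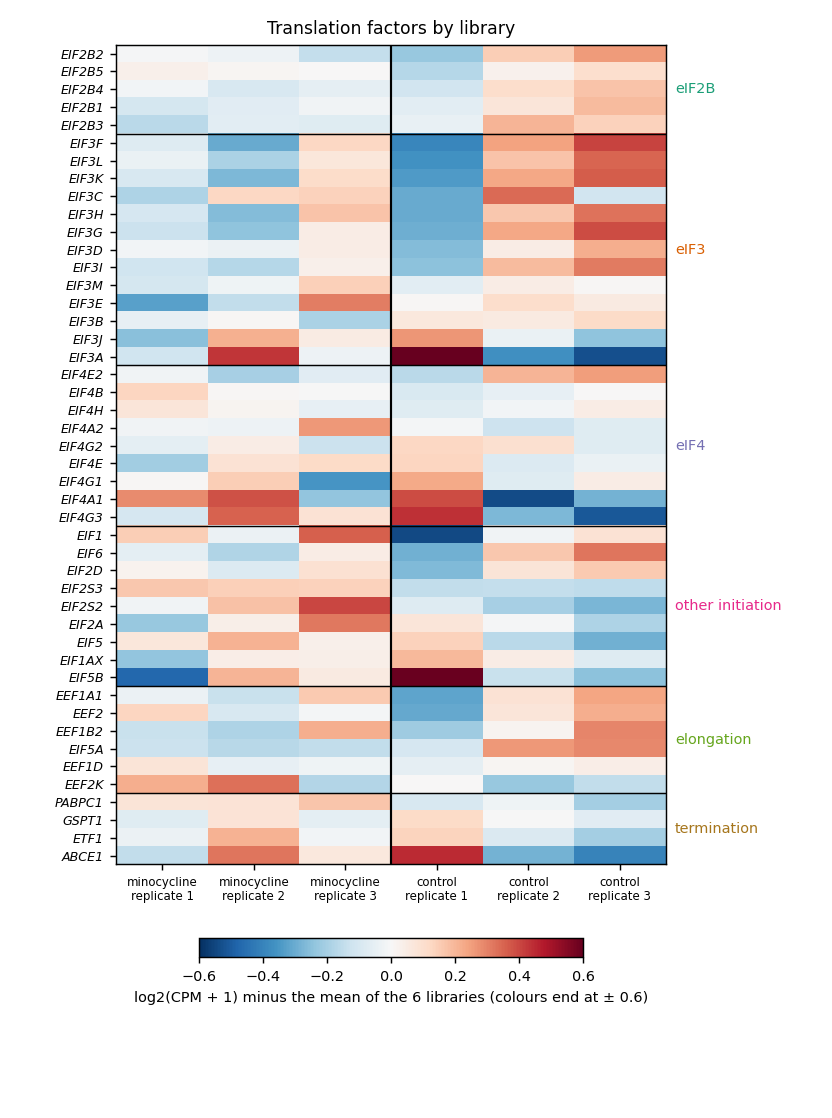
Each tested factor's log2(CPM + 1) minus its mean over the 6 libraries (colour, ending at ± 0.6), with factors as rows by role and minocycline libraries left of control libraries. Most eIF3 rows are lowest in control replicate 1 and highest in control replicate 3, while EIF3A, EIF4G3 and ABCE1 run the other way, and EIF2S3 splits by treatment.

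The eIF4 factors, which recruit mRNA through its cap, had 6 of 9 members fitted higher and 3 lower, and all 9 overlapped between groups. Their median log2 fold change was 0.029, with 0 past the test. EIF4A1, an RNA helicase of the cap complex, was at 11.5, 12.4 and 7.72 CPM with minocycline, against 12.5, 6.09 and 7.44 CPM in controls, and its log2 fold change of 0.28 ± 0.29 was the highest of the group. Without control replicate 1 it was 0.64 ± 0.22 (edgeR adjusted p = 0.0512). Its level is uncertain, because 99.9% of its transcript overlaps an annotated long noncoding RNA on the same strand, which had 2 to 7 counts per library against 102 to 230 for EIF4A1. A readthrough gene, SENP3-EIF4A1, overlaps 83.45% of it and was not among the genes of the count table. Its close relative EIF4A2 was at 208, 206 and 252 CPM with minocycline and 209, 193 and 200.3 CPM in controls. EIF4E2, a cap-binding protein that represses translation, was the lowest, at 101, 88.8 and 97.5 CPM with minocycline, against 91.3, 118 and 122 CPM in controls, a log2 fold change of -0.20 ± 0.14. EIF4H, a helper of the helicase and the most abundant per kilobase (276 CPM per kilobase with minocycline and 270.2 in controls), was at 736, 708 and 676 CPM with minocycline and 664, 691 and 722 CPM in controls. The groups overlapped, with a log2 fold change of 0.029 ± 0.13. EIF4E, the cap-binding protein itself, gave 0.0005 ± 0.15, and the scaffolds EIF4G1, EIF4G2 and EIF4G3 gave -0.12 ± 0.17, -0.10 ± 0.14 and 0.18 ± 0.24. EIF4G3 was at 155, 213 and 177 CPM with minocycline, against 226, 138 and 117 CPM in controls, with control replicate 1 the highest library and control replicate 3 the lowest. EIF4G1 was at 1393, 1535 and 1084 CPM with minocycline, against 1622, 1319.8 and 1432 CPM in controls, and minocycline replicate 3 was its low library. EIF4B, a cofactor of the helicase, had a log2 fold change of 0.091 ± 0.12.

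Elongation factors took the most counts of the 6 groups, carried by EEF1A1 and EEF2. Together they held 1.75%, 1.62% and 1.845% of all counts in minocycline replicates 1, 2 and 3, against 1.44%, 1.75% and 1.86% in control replicates 1, 2 and 3, and control replicate 1 was the lowest of the 6. Of 6 tested, 2 were fitted higher and 4 lower, with a median log2 fold change of -0.011, against 0.014 for all genes. Under scaling to library size alone the median was 0.069, against 0.084 for all genes. EEF1A1 (ENSG00000156508.13, chr6:74199031-74235310 on the minus strand), which delivers aminoacyl-tRNA, led at 3131 CPM per kilobase with minocycline and 3176 in controls. It had 10715, 10025 and 12247 CPM in minocycline libraries, against 8830.1, 11669.6 and 12959.9 CPM in control libraries. The groups overlapped fully and the log2 fold change was -0.021 ± 0.21. EEF2, the translocase, was at 4245, 3633 and 3857 CPM with minocycline, against 3139, 4092 and 4523 CPM in controls, with a log2 fold change of -0.0023 ± 0.19.

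EIF5A (ENSG00000132507.13, chr17:7210318-7215782 on the plus strand) carries hypusine and helps ribosomes through difficult stretches and at termination. It was at 1110.2, 1083 and 1097 CPM with minocycline, against 1134, 1454 and 1483 CPM in controls. All minocycline libraries were lower than all control libraries, but control replicate 1 lay much closer to them than the other control libraries did. The log2 fold change was -0.31 ± 0.15, with unadjusted p = 0.0758, and the batch differences were -0.031, -0.43 and -0.43. EEF2K, the kinase that inhibits EEF2, was the highest of the group at 43.7, 47.4 and 33.0 CPM with minocycline, against 37.4, 31.8 and 33.7 CPM in controls, a log2 fold change of 0.27 ± 0.16. EEF1B2 and EEF1D, exchange factors for eEF1A, gave -0.069 ± 0.17 and 0.0039 ± 0.12. EEF1G, a further eEF1 subunit, could not be tested: it had 1 count in control replicate 1 and 0 in each of the other 5 libraries, while 99.5% of its transcript overlaps another annotated gene on the same strand, which had 36 to 47 counts. Reads of related copies could touch the group too, since the pseudogene EEF1A1P5 had 3620 to 4918 counts per library and EIF5AL1 had 402 to 575.

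Pyrimidine-rich starts were the sequence feature examined, because the mRNAs of elongation factors are known for them. The 30 bases around a RefSeq start (15 before and 15 from it, matched exactly to GRCh37) are printed in the direction of the gene for factors with such a start and for EIF1 and EIF2B3 without one. Where a gene had several starts, a start with a pyrimidine run was chosen for printing. Capitals mark the pyrimidine run that begins at the start, which in EEF1B2 continues past the printed bases.
EEF1A1: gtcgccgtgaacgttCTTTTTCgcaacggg
EEF2: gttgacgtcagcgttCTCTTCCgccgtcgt
EEF1B2: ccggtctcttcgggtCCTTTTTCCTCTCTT
EIF3F: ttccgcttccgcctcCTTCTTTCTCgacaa
EIF4B: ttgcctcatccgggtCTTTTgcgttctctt
EIF2S3: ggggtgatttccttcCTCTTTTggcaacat
EIF1: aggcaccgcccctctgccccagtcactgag
EIF2B3: attgggctgtcagtcagaggcggcgtggag
These lie at chr6:74230741-74230770, chr19:3985447-3985476, chr2:207024604-207024633, chr11:8008869-8008898, chr12:53400225-53400254, chrX:24073058-24073087, chr17:39845122-39845151 and chr1:45452253-45452282, with EEF1A1, EEF2 and EIF2B3 on the minus strand and the others on the plus strand.

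A gene was counted if any of its RefSeq starts was a C followed by at least 4 pyrimidines. This held for 12 of the 39 members that matched RefSeq, or 30.8%, against 5.14% of 27305 genes and 74.6% of 63 matched ribosomal protein genes. EIF3A, EIF3E, EIF3G, EIF3H, EIF3L, EIF2S2, EEF1D and PABPC1 are the members without a match. The 12 were EIF3D, EIF3F, EIF3K, EIF3M, EIF4A2, EIF4B, EIF2S3, EIF2A, EIF2D, EEF1A1, EEF1B2 and EEF2. Their median log2 fold change was 0.0033, with 6 fitted higher and 6 lower, and that of the 26 tested members without such a start was -0.065. Control replicate 1 was the lowest library in 8 of the 12, in 8 of the 26 and in 3406 of all 17225 genes tested. Without control replicate 1 the medians were -0.12 with such a start and -0.039 without, the opposite order. Among 10 members known from the literature for pyrimidine starts, 9 were tested, of which 3 were fitted higher and 6 lower, with a median of -0.021, or -0.14 without control replicate 1. Ribosomal protein genes, which share this start, had 78 of 79 fitted lower and a median of -0.30, with 0 past the test. Without control replicate 1 their median was -0.52 and 44 (55.7%) passed, against 17.9% of all genes. By batch their median difference was 0.12, -0.69 and -0.29 in batches 1, 2 and 3, so batch 1 went the other way. Their share of the counts was 8.37%, 7.36% and 10.85% in minocycline replicates 1, 2 and 3, against 7.425%, 11.1% and 12.3% in control replicates 1, 2 and 3, and it was low in control replicate 1 as well. The motif TTGCATCA, read on both strands, which ATF4 binds with C/EBP proteins, was in 0 of the 39 members' 300-base windows and in 1.08% of all genes' windows.

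Termination and recycling factors with PABPC1 had 3 of 4 fitted higher and 1 lower, with a median log2 fold change of 0.11. PABPC1 (ENSG00000070756.9), which binds the poly(A) tail and promotes both initiation and termination, was the highest of them and the most abundant per kilobase (326 CPM per kilobase with minocycline and 281 in controls). It stood at 912, 914 and 971 CPM with minocycline, against 810.3, 849.8 and 750.4 CPM in controls, so that the groups did not overlap. Its log2 fold change was 0.21 ± 0.13, with unadjusted p = 0.138, and its batch differences were 0.17, 0.11 and 0.37. GSPT1, the GTPase eRF3a, was the lowest at 232, 259 and 234 CPM with minocycline, against 264, 243 and 233 CPM in controls, a log2 fold change of -0.032 ± 0.12. ETF1, the stop codon reader eRF1, gave 0.10 ± 0.14. ABCE1, which splits ribosomes after termination, was at 83.6, 116 and 96.7 CPM with minocycline, against 127, 76.0 and 70.0 CPM in controls. Its control libraries held both the highest and the lowest value, and its log2 fold change was 0.12 ± 0.23.

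**Figure D4:**
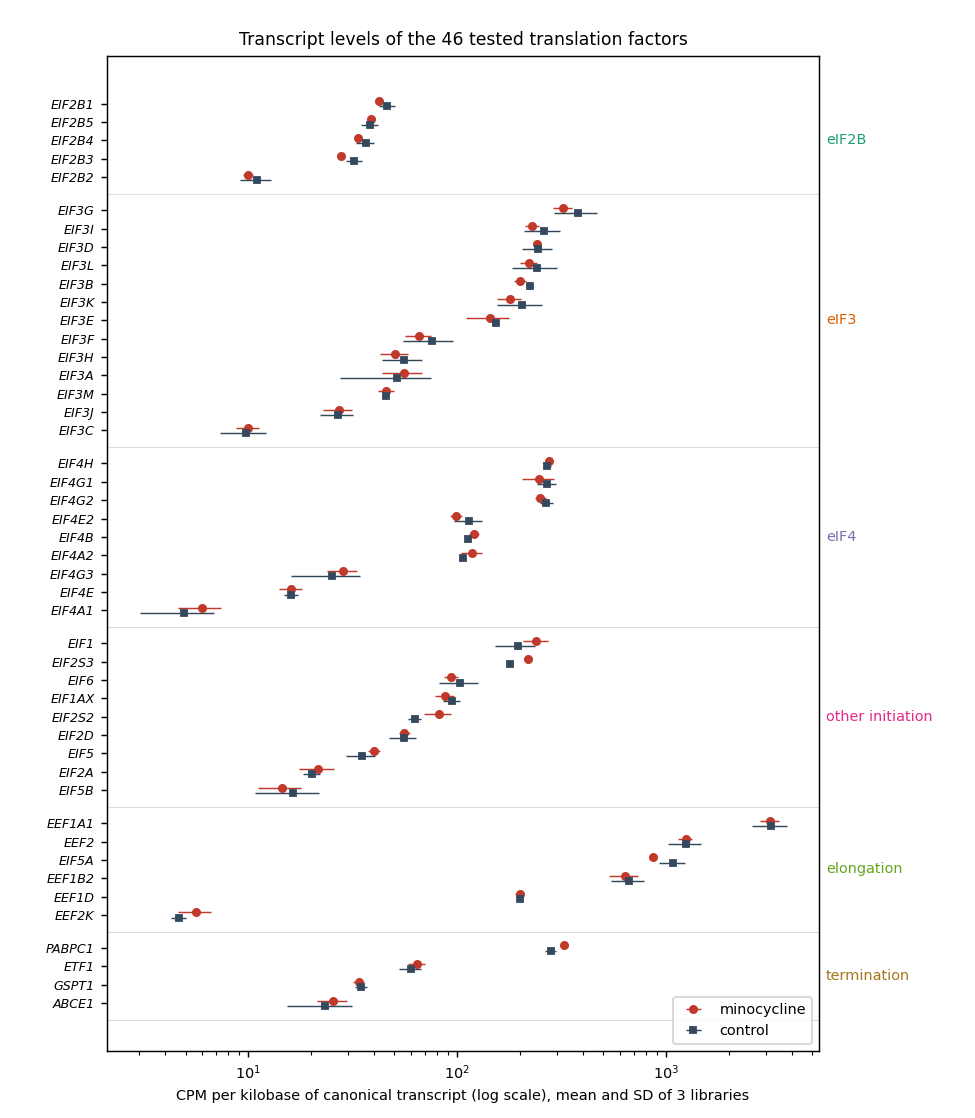
Mean level of each factor per kilobase of transcript (log axis, CPM per kilobase) in minocycline and control libraries, with bars of 1 SD over 3 libraries. EEF1A1 is highest at 3131 with minocycline and 3176 in controls, EEF2K and EIF4A1 are lowest among the 46 drawn, and EEF1G is not drawn.

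Control replicate 1 was the highest or lowest of the 6 libraries in 31 of 46 factors, or 67.4%, against 40.2% of all genes. In 20 it was lowest and in 11 highest, against 3406 and 3517 of the 17225 genes tested. The 11 had a median transcript length of 4414 bases and a median GC content of 41.0%, against 2450 bases and 51.6% for the 20. A correction for both on all 6 libraries gave 0 factors past the test, as did the fit without it. The corrected fit was not run without control replicate 1. Whether length or GC content accounts for the pattern was not tested. With control replicate 1 left out, 8 of 46 factors passed (17.4%), where 17.9% of all genes did. EIF3A (0.56 ± 0.15, edgeR adjusted p = 0.0207), EIF4G3 (0.51 ± 0.14, adjusted p = 0.0209), ABCE1 (0.43 ± 0.14, adjusted p = 0.0394) and EIF2S2 (0.43 ± 0.13, adjusted p = 0.0317) were then higher, as were 9.52% of all genes. EIF5A (-0.42 ± 0.12, adjusted p = 0.0280), EIF3G (-0.42 ± 0.12, adjusted p = 0.0291), EIF3K (-0.38 ± 0.13, adjusted p = 0.0474) and EIF3F (-0.40 ± 0.14, adjusted p = 0.0499) were then lower, as were 8.34% of all genes. The share among the factors lay near that among all genes. The group medians without that library were -0.20 for eIF2B, -0.16 for eIF3, 0.068 for eIF4, 0.15 for other initiation factors, -0.15 for elongation and 0.21 for termination, against 0.031 for all genes. Those of elongation, eIF4, other initiation and termination thus lay over 1.5 times further from 0 than with all 6 libraries, and leaving out any other library gave 0 factors past the test.

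The count of 0 factors held for other ways of processing that called few genes of any kind. The share of all genes past the test was 0.0464% under RLE factors, 0.0755% under scaling to library size alone, 0.280% with no filter on low counts and 0.0708% with at least 10 counts in every library. It was 0.285% with DESeq2, 0.0639% with limma-voom and 0.0755% with the replicate block. The correction for length and GC content gave 0.185%, and 0.221% with the block added. Without control replicate 2 or 3 it was 0.0225% or 0.0508%, and without minocycline replicate 1, 2 or 3 it was 0.00566%, 0.0454% or 0.00565%. EIF1 and the 8 factors named without control replicate 1 were thus the 9 that passed in any alternative, and 37 of 46 passed in none.

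**Figure D5:**
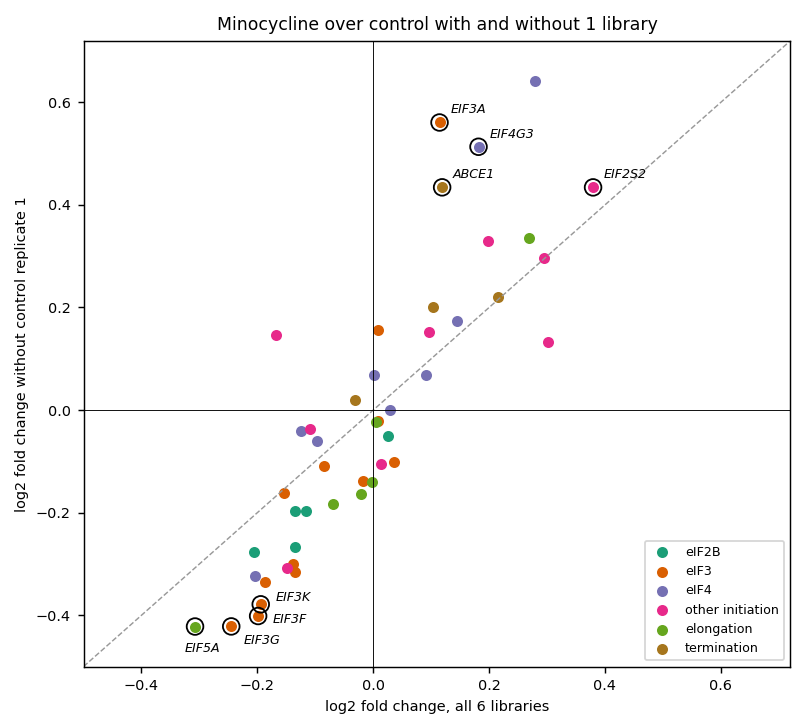
Log2 fold change of minocycline over control without control replicate 1 (y axis) against that from all 6 libraries (x axis) for each tested factor, coloured by role, with the diagonal dashed. Circles mark the 8 factors past an adjusted p of 0.05 without that library, and EIF3A, EIF4G3 and ABCE1 lie far above the diagonal.

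Other genes of the translation pathway were read from the same fit. Of 20 tested cytosolic relatives, such as EIF2S1 and RACK1, 8 were fitted higher and 12 lower, with a median log2 fold change of -0.030, 0 past edgeR's test and 1 at an unadjusted p under 0.05 (5.00%, against 4.70% of all genes). EIF3CL had the highest (0.53 ± 0.22) and EEF1A2, the tissue-restricted twin of EEF1A1, the lowest (-0.46 ± 0.23). Without control replicate 1, EEF1A2 fell by 0.71 ± 0.12 (edgeR adjusted p = 0.00265), the 1 relative of 20 to pass, where 17.9% of all genes did. Of 21 regulators, 11 were fitted higher and 10 lower, with a median of 0.0067, 0 past the test and 2 at an unadjusted p under 0.05 (9.52%, against 4.70% of all genes). EIF4EBP1, a cap-complex inhibitor and ATF4 target, had the highest log2 fold change (0.60 ± 0.26), and DOHH, the enzyme that finishes hypusine on EIF5A, the lowest (-0.43 ± 0.15, unadjusted p = 0.0170). DOHH was at 35.1, 33.1 and 30.3 CPM with minocycline, against 37.4, 47.5 and 47.5 CPM in controls, without overlap. EIF4EBP1 was at 231, 177 and 276 CPM with minocycline, against 93.5, 173 and 185 CPM in controls. Its groups overlapped, and control replicate 1 was its lowest library. It rose by 1.00 ± 0.088 with 1 surrogate variable (edgeR adjusted p = 3.0e-05), where 0.528% of all genes passed. It passed in no other alternative, and its log2 fold change ran between 0.35 and 1.00 over the 16. Without control replicate 1, 3 of 21 regulators passed (14.3%, against 17.9% of all genes). DOHH fell by 0.53 ± 0.13 (edgeR adjusted p = 0.0127), EIF2AK1, the heme-regulated eIF2 kinase, fell by 0.33 ± 0.11 (adjusted p = 0.0498), and EIF2AK3, the eIF2 kinase of the endoplasmic reticulum, rose by 0.72 ± 0.18 (adjusted p = 0.0155). Of 9 mitochondrial translation factors, 3 were fitted higher and 6 lower, with a median of -0.079, 0 past the test and 0 at an unadjusted p under 0.05. They lay between -0.24 ± 0.18 for TSFM and 0.31 ± 0.18 for GFM1, both elongation factors of that organelle, and GFM1 rose by 0.54 ± 0.13 without control replicate 1 (edgeR adjusted p = 0.0116), the 1 of 9 to pass, against 17.9% of all genes.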

How the data were processed

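Total RNA of HEK293 cells was measured in 3 minocycline and 3 DMSO libraries. Per the labels' protocols, RNA was purified on RNeasy columns with DNase and made into paired-end NEBNext Ultra II libraries. The authors deposited whole-number counts per gene, not normalized. Per the submitters' processing notes the build was hg19. The aligner, counter, annotation, strand setting and RNA selection are not given in the sources used here.

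Symbols, positions, transcript lengths and GC content (of the canonical transcript) came from GENCODE mapped to GRCh37, which matched 55538 identifiers holding 99.1% of the counts. Levels per kilobase divide by that length, such as 1103 bases for EIF3G and 6920 for EIF3F. Their order within a group therefore depends on the transcript chosen. Genes were filtered with filterByExpr and scaled with TMM, and 17225 were tested with edgeR 4.0.16 (glmQLFit and glmQLFTest, R 4.3.3) with treatment as the single term. A gene was called at an adjusted p under 0.05 (Benjamini-Hochberg, all genes tested), and CPM are TMM-scaled. The fit was tested on simulated data. A factor that missed the threshold is not thereby shown to be equal in both groups. Where the unadjusted p is printed, it comes from the same fit. Alternatives were RLE factors, scaling to library size alone, DESeq2 1.42.0, voom in limma 3.58.1, no filter, at least 10 counts in every library, the replicate block, 1 surrogate variable (sva 3.50.0), a spline correction (4 degrees of freedom) for length and GC content, with and without the block, and each library left out.

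The labels give the replicate number as the batch, so same-numbered libraries were taken as pairs. As a check, deviations from the group means correlated across genes at -0.050, -0.29 and 0.30 for pairs 1, 2 and 3, and at 0.50 between control replicate 1 and minocycline replicate 2. No 2 libraries of a group were alike within counting noise. The factors and all lists were chosen with earlier results of these data known.

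Genes given by library were those with an unadjusted p under 0.05, the highest and lowest log2 fold change of each group and the highest level per kilobase. EIF3B, EIF3E, EIF4A2, EIF4G1, EEF2, EIF5 and ABCE1 and the factors called without control replicate 1 were added after their values were seen. Sequences are RefSeq starts located by exact match in GRCh37.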

Additional observations from a re-analysis of the deposited data

How the results depend on the processing

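Of the 46 tested factors, 0 passed in the fit described, with RLE factors, library size scaling, DESeq2, limma-voom, no filter, the stricter filter, the length and GC correction with or without the block, and without any library other than control replicate 1. The replicate block changed no call (0 of 46). With 1 surrogate variable 1 factor passed, and over the left-out libraries the number ran between 0 and 8, the 8 being without control replicate 1. Of 736 factor results under 16 alternatives, 629 kept direction and side of the threshold, 9 newly passed and 98 changed sign, none of which had passed in the fit described, and 16 factors never changed sign. EIF2S2 and EIF2S3 kept their sign in all 16. Causes of the sign changes were not tested.

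With RLE factors, the log2 fold change was -0.0090 for EIF3J, -0.0092 for EIF3M, -0.017 for EIF4E, -0.0049 for EIF2D and -0.014 for EEF1D. With DESeq2, the log2 fold change was -0.0090 for EIF3J, -0.0092 for EIF3M, -0.018 for EIF4E, -0.0049 for EIF2D and -0.014 for EEF1D. With no filter, the log2 fold change was -0.0077 for EIF3J, -0.0095 for EIF3M, -0.017 for EIF4E, -0.0060 for EIF2D and -0.015 for EEF1D. With at least 10 counts in every library, the log2 fold change was 0.0046 for EEF2. With library size scaling, the log2 fold change was 0.063 for EIF3D, 0.060 for EEF1A1, 0.011 for EEF1B2, 0.079 for EEF2 and 0.037 for GSPT1. With limma-voom, the log2 fold change was -0.0055 for EIF4E and 0.0094 for EEF2. With the replicate block, the log2 fold change was -0.0036 for EIF4E and 0.011 for EEF2. With 1 surrogate variable, the log2 fold change was 0.0067 for EIF2B2, -0.18 for EIF3A, 0.13 for EIF3D, 0.10 for EIF3F, 0.0007 for EIF3G, 0.10 for EIF3H, 0.0069 for EIF3I, -0.13 for EIF3J, 0.069 for EIF3K, 0.12 for EIF3L, -0.0010 for EIF4A1, -0.050 for EIF4E, -0.055 for EIF4G3, 0.065 for EIF6, 0.18 for EEF1A1, 0.11 for EEF1B2, 0.17 for EEF2, -0.0079 for ETF1 and -0.11 for ABCE1. With the length and GC correction, the log2 fold change was -0.059 for EIF3J, -0.15 for EIF3M, -0.016 for EIF4B, -0.080 for EIF4E, -0.024 for EIF2A and 0.051 for EEF2. With that correction and the replicate block, the log2 fold change was -0.060 for EIF3J, -0.13 for EIF3M, -0.012 for EIF4B, -0.079 for EIF4E, -0.032 for EIF2A and 0.057 for EEF2. With single libraries left out, it ran between -0.051 and 0.077 for EIF2B5, -0.10 and 0.56 for EIF3A, -0.10 and 0.25 for EIF3C, -0.14 and 0.088 for EIF3D, -0.30 and 0.042 for EIF3E, -0.11 and 0.16 for EIF3J, -0.32 and 0.011 for EIF3L, -0.074 and 0.062 for EIF3M, -0.069 and 0.10 for EIF4E, -0.011 and 0.51 for EIF4G3, -0.0024 and 0.051 for EIF4H, -0.064 and 0.22 for EIF2A, -0.10 and 0.091 for EIF2D, -0.33 and 0.15 for EIF5B, -0.16 and 0.093 for EEF1A1, -0.22 and 0.063 for EEF1B2, -0.037 and 0.029 for EEF1D, -0.14 and 0.10 for EEF2, -0.084 and 0.020 for GSPT1 and -0.046 and 0.43 for ABCE1.

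The limits are the 3 libraries per group, a control library that stands apart, and low counts of EIF4A1 and EEF1G. Under every alternative each group's median moved by less than its replicate spread, an SD between 0.0997 for eIF4 and 0.2465 for termination. In every group that spread was larger than the median itself, so this check could not detect a lost or reversed direction. Left-out libraries moved eIF2B between -0.20 and -0.063, eIF3 between -0.21 and -0.061, and eIF4 between -0.011 and 0.068. They moved other initiation between -0.039 and 0.22, elongation between -0.15 and 0.078, and termination between -0.013 and 0.21. With 1 surrogate variable the median changed sign in eIF3 (0.052), eIF4 (-0.050), elongation (0.13) and termination (-0.052).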
